A study of Mus musculus with 2 samples.

Results

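Id1, Id2, Id3 and Id4 are the members of the Id family, small helix-loop-helix proteins that lack the basic region with which related factors bind DNA. They were taken by gene symbol from the gene table that both libraries share, and all 4 were found among its 33456 genes. The family was selected on an earlier value of these same libraries, the higher level of Id2 in Baf155 CKO progenitor cells, so the comparison of that gene is a description and no test supports it.

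Id proteins pair with E proteins, the products of Tcf3, Tcf4 and Tcf12, and keep them and their tissue-specific partners off the E-box motif. Their genes are classical direct targets of bone morphogenetic protein (BMP) signalling through SMAD factors, and in many cell lineages they are high in growing, immature cells and low once differentiation is under way. In mouse embryos Id1 and Id3 are known for their part in blood vessel formation, and in blood the E proteins restrained by Id2 and its relatives work together with Tal1 and Lyl1.

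The data came from 10x Genomics 5′ single-cell RNA libraries of B6 mouse yolk sac, 1 from Baf155 CKO embryos and 1 from wild-type (WT) embryos. Baf155 is the product of Smarcc1, a core subunit of the BAF chromatin remodelling complex. Each library pooled E9.5 and E10.5 embryos in equal numbers, and live cells without the erythroid surface marker Ter119 were sorted after collagenase digestion and freezing. Neither the Cre driver nor the deleted exon is named in the sources used here, nor how many embryos were pooled, and the labels speak of nuclei where the protocol speaks of cells. With 1 library per genotype there was no replicate and no test, and genotype, embryo pool, sort and library cannot be told apart. All intervals are 95% intervals for counting error only, and UMIs from the same cell are not independent molecules of the class, so the spread between embryos would be wider.

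The files held 865 CKO and 815 WT barcodes with 27314411 and 24538853 UMIs (unique molecular identifiers, 1 per captured RNA molecule), of which 841 CKO and 784 WT cells were kept, and 1 barcode was shared. Smarcc1 stood at 24.0 CPM (its UMIs scaled to 1000000 UMIs of the cells summed) in kept CKO cells and 94.9 CPM in kept WT cells, a ratio of 0.253 (0.232 to 0.276). By class the Smarcc1 ratio was 0.290 in progenitor-like, 0.117 in endothelium-like, 0.310 in stromal-like and 0.129 in erythroid-like cells. In macrophage-like cells it was 0.997 (0.735 to 1.34), so the 15 CKO cells of that class did not show the lower Smarcc1 of these classes. Cells were put into classes by how many genes of a marker list were seen in them, with numbers set after looking at the marker counts. Endothelium-like cells (44 CKO and 50 WT), stromal-like cells (278 and 243) and erythroid-like cells (251 and 154) had markers of their own or, for WT stromal-like cells, of smooth muscle at the top of the genes ranked by fold over other cells, as had the 46 WT macrophage-like cells. The 15 CKO macrophage-like cells were too few to rank. Progenitor-like cells (106 CKO and 172 WT) had Mpo and Prtn3, enzymes of myeloid granules, among their top 10 genes in both libraries, at ranks 6 and 7 in CKO and 2 and 1 in WT. The CKO ranking was led by Stfa1, BC100530, Ccl3, Hp and Ccl4. Of the blood progenitor list it held only Mpo and Prtn3, which the gate itself uses. The 9 markers of that list summed to 2142 CPM in CKO and 2125 CPM in WT. Another 29 CKO and 8 WT cells passed both the endothelium and the progenitor gate and were kept apart.

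The Id genes lie on separate chromosomes of the GRCm38 assembly. Id1 is at chr2:152736251-152737410 on the plus strand, Id2 at chr12:25093799-25097140 on the minus strand, Id3 at chr4:136143497-136145755 on the plus strand and Id4 at chr13:48261228-48266026 on the plus strand. An antisense RNA gene and a long intergenic RNA gene overlap Id4 on the other strand, and no source used here says whether counting used strand, so Id4 counts may include theirs. RefSeq start sites with 250 bases before them (GRCm38.p6) were at hand for 3 of the members. Since the values of Id2 and Id3 lay together in the cells described below, the motif letters found before their starts are shown in stretches of 30 bases, with the motif in capitals. The windows overlap exons of longer GENCODE transcripts, at 161 of the 250 bases for Id2 and at all 250 for Id3, so the letters printed can lie inside the gene intervals given above. The motifs searched on both strands were the E-box CANNTG, the SMAD-associated motif GGCGCC, the CCAAT box (CCAAT) and the TATA box (TATAA).

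Id2 E-box, chr12:25096271-25096300, minus strand: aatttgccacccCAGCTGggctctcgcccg
Id2 GGCGCC, chr12:25096306-25096335, minus strand: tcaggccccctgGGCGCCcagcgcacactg
Id2 CCAAT, chr12:25096151-25096180, minus strand: ggagcccttccaCCAATggcaattcaggga
Id3 TATAA, chr4:136143781-136143810, plus strand: tagagaggactcTATAAgagtcggccgctg

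The window of Id2 held 1 E-box, 1 SMAD-associated motif and 3 CCAAT boxes, and that of Id3 held 1 TATA box, 29 bases before the start, and none of the other 3 motifs. Of all 32851 RefSeq windows of this length, 66.2% held an E-box, 9.59% the SMAD-associated motif, 33.8% a CCAAT box and 22.8% a TATA box. No motif was common to both windows. These letters are a description of the sequence and not evidence of binding.

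Among gated classes with at least 20 cells in a library, endothelium-like cells had the highest Id1 and Id3 in both libraries, and the highest Id2 in the CKO library. Id3 stood at 746 CPM (697 to 796) in CKO and 762 CPM (701 to 826) in WT endothelium-like cells, which was 7.55 times (6.99 to 8.16) and 11.03 times (10.01 to 12.1) its level in the other cells of the same library. Id1 stood at 264 CPM (236 to 295) in CKO and 222 CPM (190 to 258) in WT endothelium-like cells, 5.62 and 4.28 times the other cells. Id2 had 129 CPM (109 to 151) in CKO and 112 CPM (89.1 to 138) in WT endothelium-like cells, 3.02 and 2.14 times the other cells. These cells were deeper in the CKO library, with a median of 25336 UMIs against 13095 in WT. After thinning every cell to 6000 UMIs, Id3 was seen in 79.5% (64.7 to 90.2) of CKO and 84.0% (70.9 to 92.8) of WT endothelium-like cells, against 88.6% and 88.0% without thinning. Single cells ranged up to 2124 CPM of Id3 in CKO and 2203 CPM in WT, with medians of 705 and 599 CPM.

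The 44 CKO cells of no gate had Id2 at 183 CPM (158 to 211), above the gated CKO classes with at least 20 cells. Id2 had its WT maximum in another gated class. The 28 WT endoderm-like cells, which carried Apoa1, Ttr and Afp, transport proteins of visceral endoderm, held Id2 at 497 CPM (448 to 550), 12.5 times (11.1 to 14.2) the other WT cells. Every one of these 28 cells had an Id2 UMI, and the lowest cell stood at 69.2 CPM. Id1 reached 206 CPM (175 to 241) there, an interval that overlaps that of WT endothelium-like cells, and Id3 167 CPM (139 to 199). Only 2 CKO cells passed this gate, so no comparison of genotypes was made in it.

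Erythroid-like cells were the low end for Id1, Id2 and Id3 among these classes. Id3 had 4.18 CPM (2.97 to 5.72) in CKO and 1.28 CPM (0.513 to 2.63) in WT erythroid-like cells, Id1 2.36 and 4.01 CPM, Id2 1.18 and 0.912 CPM, and Id4 0.322 and 0.182 CPM. Thinned shares were between 1.20% and 1.95% for Id1, Id2 and Id3 in both libraries, and free RNA in droplets gives such low shares too. For Id3 the ratio of 3.28 (1.45 to 8.68) rests on 39 CKO and 7 WT UMIs. Different joint clusters held the class, since cluster 4 had 235 CKO and 1 WT cells and cluster 13 had 18 CKO and 153 WT cells. In erythroid-like cells of cluster 13 Id3 had 6.90 CPM (1.88 to 17.7) in CKO and 1.28 CPM (0.514 to 2.63) in WT, from 4 and 7 UMIs, which is too few for a ratio. Markers of stromal cells moved with it. The 8 mesenchyme markers summed to 68.5 CPM in CKO (0 of them at 0) and 18.8 CPM in WT erythroid-like cells (1 at 0), and their part in the Id3 value was not tested.

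**Figure D1:**
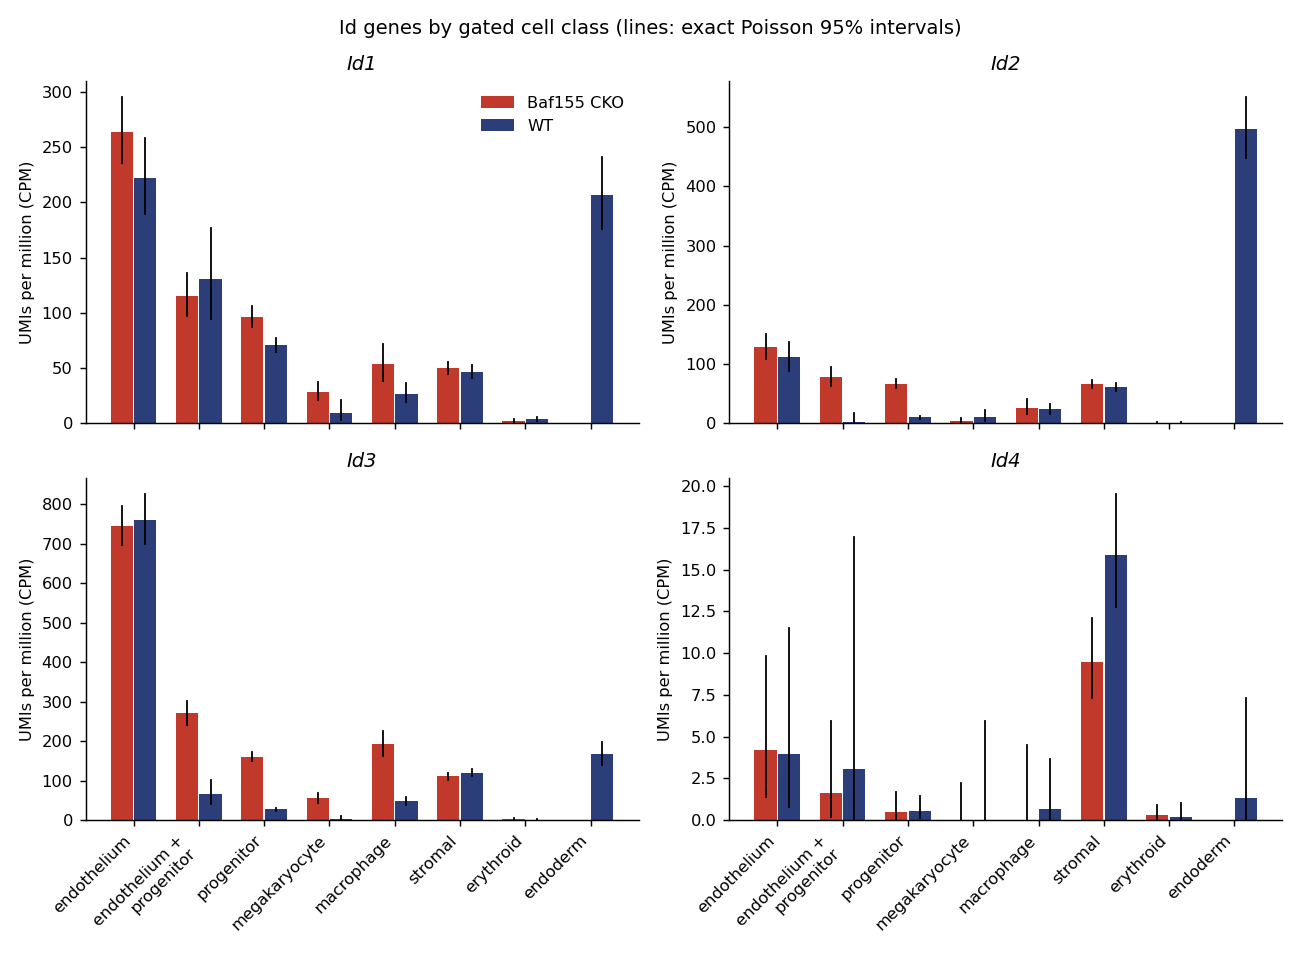
Levels of the 4 Id genes in CPM by gated cell class, Baf155 CKO beside WT, with exact Poisson 95% intervals as lines and a linear axis of its own for each gene. Id3 is high in endothelium-like cells of both libraries (746 and 762 CPM) and differs in progenitor-like cells (161 and 27.3 CPM). Classes with fewer than 5 cells in a library are not drawn.

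Levels in the classes between these ends were ordered differently in the libraries. For Id3 the WT order after endothelium-like was endoderm-like, stromal-like at 120 CPM (112 to 130), macrophage-like at 47.8 CPM (37.5 to 60.1), progenitor-like at 27.3 CPM (23.5 to 31.4) and erythroid-like cells. In the CKO library the order of Id3 was endothelium-like, cells of both endothelium and progenitor gates, progenitor-like, stromal-like, megakaryocyte-like and erythroid-like cells. There progenitor-like cells at 161 CPM (149 to 174) stood above stromal-like cells at 111 CPM (103 to 119), with intervals that do not overlap. That order is one of sums, since 6 of 106 progenitor-like cells held 56.8% of their Id3 UMIs. Per cell, CKO medians were 5.73 CPM in progenitor-like and 27.3 CPM in stromal-like cells, with thinned shares of 28.3% and 31.7%. For Id2 the WT order after endoderm-like and endothelium-like was stromal-like at 61.5 CPM (55.1 to 68.3), macrophage-like at 23.6 CPM (16.5 to 32.6), progenitor-like at 10.6 CPM (8.29 to 13.3) and erythroid-like cells. Neighbours in the WT orders of Id3 and Id2 had no overlapping intervals, which cover counting error only. Of the WT macrophage-like Id3 UMIs, 3 of 46 cells held 78.1%. Thinned shares of Id3 were 8.70% in these cells and 9.30% in WT progenitor-like cells. In the CKO library the intervals of Id2 in progenitor-like cells, 66.6 CPM (59.0 to 74.8), and in stromal-like cells, 66.4 CPM (60.4 to 72.9), overlap. Id1 kept progenitor-like above stromal-like cells in both libraries, at 96.1 and 50.0 CPM in CKO and at 70.8 and 46.7 CPM in WT.

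Id4 was a gene of stromal-like cells. It stood at 9.49 CPM (7.31 to 12.1) in CKO and 15.9 CPM (12.7 to 19.5) in WT stromal-like cells, 9.11 times (5.49 to 15.7) and 24.5 times (13.3 to 49.1) the other cells of each library. Those cells held 64 of its 85 CKO UMIs and 89 of its 101 WT UMIs. In progenitor-like cells 2 CKO and 4 WT UMIs were counted, and no difference was detectable at this depth. Megakaryocyte-like cells held no Id4 UMI in either library, and a count of 0, with its limit taken as 3 UMIs, allows up to 1.82 CPM in CKO and 4.82 CPM in WT.

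Between the genotypes, Id2 and Id3 were higher in CKO progenitor-like cells, while Id1, Id2 and Id3 differed by less than 1.2 times in endothelium-like and stromal-like cells as classes were summed here. Some of these small ratios moved with the processing, with Id2 in stromal-like cells at 1.73 (1.49 to 2.02) in clusters filled by both libraries and 1.77 (1.42 to 2.21) without the top 5% of cells, where Id3 was 1.41 (1.22 to 1.64). As means of per-cell CPM, Id1 and Id2 in endothelium-like cells had ratios of 1.68 and 1.74. Across the 4 classes with at least 20 cells in each library, 12 of 16 pairs of gene and class had at least 20 UMIs over both libraries. Of these, 3 were at least 2-fold higher in CKO (Id2 and Id3 in progenitor-like and Id3 in erythroid-like cells) and 0 at least 2-fold lower. Of all genes with as many UMIs, 8.05% were 2-fold higher and 4.39% 2-fold lower in CKO progenitor-like cells, 5.28% and 7.71% in endothelium-like, 6.19% and 3.68% in stromal-like, and 10.3% and 3.01% in erythroid-like cells. In the progenitor-like class 2 of 3 measured Id genes passed 2-fold, a count from which nothing is read since it shaped the choice of the family. The median log2 ratio over all genes was 0.02, -0.08, -0.01 and 0.20 in the classes in this order.

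Id2 in progenitor-like cells had 66.6 CPM in CKO (282 UMIs) and 10.6 CPM in WT (74 UMIs), a ratio of 6.30 (4.86 to 8.25). Single cells lay between 0 and 1379 CPM in CKO and between 0 and 234 CPM in WT, with medians of 0 in both. After thinning, 19.8% (12.7 to 28.7) of CKO and 3.49% (1.29 to 7.44) of WT cells had an Id2 UMI, against 36.8% and 20.9% without thinning. The distributions overlap, and the difference lay in a minority of CKO cells. Among the 10121 genes measured in this class 0.751% had a larger ratio. Nothing is read from that share, since the family was selected on this difference.

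Id3 in progenitor-like cells had 161 CPM in CKO (683 UMIs) and 27.3 CPM in WT (191 UMIs), a ratio of 5.91 (5.03 to 6.98). Single cells reached 2455 CPM in CKO and 830 CPM in WT, with medians of 5.73 and 0 CPM. Thinned shares were 28.3% (19.98 to 37.9) in CKO and 9.30% (5.41 to 14.7) in WT, against 50.0% and 25.6% without thinning. The highest CKO cell for Id3 held 19.0% of its CKO UMIs, and the highest for Id2 held 25.9%. Leaving out the highest cell of each library gave 5.76 for Id3 and 5.60 for Id2. With 1 marker fewer needed at each gate the ratios were 10.96 for Id3 and 10.8 for Id2.

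Id1 in progenitor-like cells differed less, with 96.1 CPM in CKO and 70.8 CPM in WT, a ratio of 1.36 (1.19 to 1.55). Its thinned shares, 25.5% (17.5 to 34.9) in CKO and 27.9% (21.3 to 35.2) in WT, have overlapping intervals. Of all genes of the class, 22.9% had a larger ratio than Id1.

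**Figure D2:**
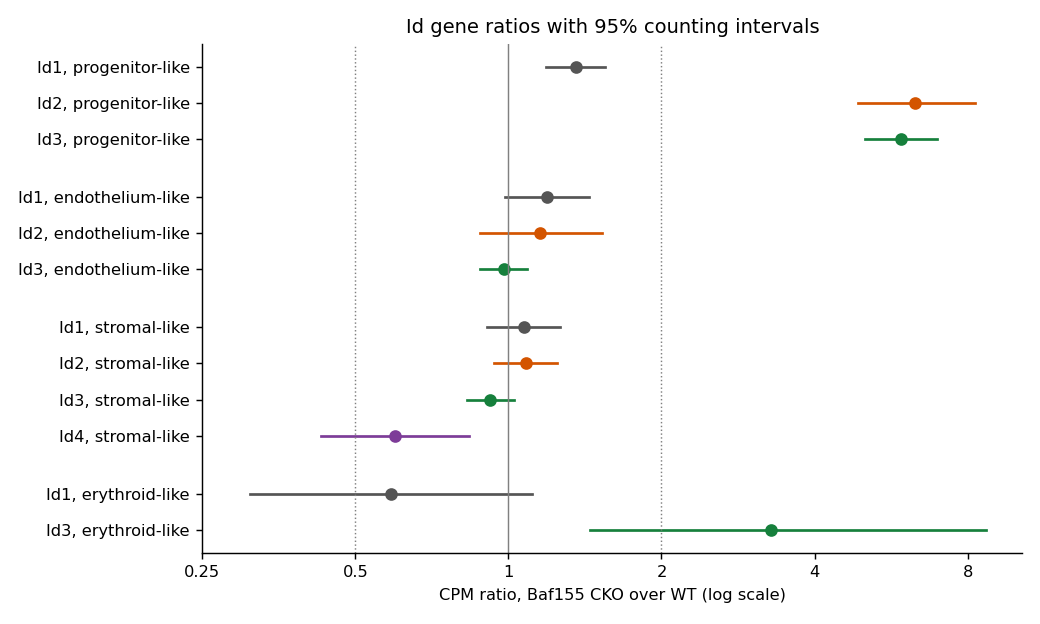
CPM ratios of Baf155 CKO over WT on a log axis for the 12 pairs of Id gene and class with at least 20 UMIs, with conditional binomial 95% intervals for counting error. Dotted lines mark 2-fold either way. Id2 (6.30) and Id3 (5.91) in progenitor-like cells lie past 2-fold with their whole intervals, and the 6 ratios of Id1, Id2 and Id3 in endothelium-like and stromal-like cells lie near 1.

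CKO progenitor-like cells were not uniform in Id2 and Id3. Clustering both libraries together, with no Id gene among the variable genes, put 77 of the 106 CKO cells in cluster 2, which held no WT cell, and 26 in clusters 11 and 12, which held 149 of the 172 WT cells. Another 22 WT cells lay in cluster 16, which held no CKO cell. Clusters held by a single library can reflect that library and need not be a type of cell.

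Id2 stood at 100 CPM (88.9 to 113) in CKO cells of cluster 2 and at 5.09 CPM (2.05 to 10.49, from 7 UMIs) in CKO cells of clusters 11 and 12. In WT it was 10.51 CPM (8.06 to 13.5) in clusters 11 and 12 and 11.3 CPM (5.82 to 19.7) in cluster 16, where all 12 UMIs came from 1 cell. Within the clusters that both libraries filled, the ratio of Id2 was therefore 0.484 (0.187 to 1.06), against 6.30 over the whole class.

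Id3 stood at 218 CPM (201 to 237) in CKO cells of cluster 2 and at 61.8 CPM (49.4 to 76.4) in CKO cells of clusters 11 and 12. The WT values were 31.9 CPM (27.5 to 36.8) in clusters 11 and 12 and 2.82 CPM (0.581 to 8.23, from 3 UMIs) in cluster 16. The ratio in the clusters filled by both libraries was 1.94 (1.48 to 2.52) for Id3 and 0.796 (0.621 to 1.01) for Id1. So the higher Id2 lay in CKO cells of a cluster without WT cells, and for Id3 a smaller difference was also present in the shared clusters.

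Smarcc1 moved with this division. It had 10.95 CPM (7.39 to 15.6) in CKO cells of cluster 2 and 87.3 CPM (72.3 to 104) in CKO cells of clusters 11 and 12, against 134 CPM (125 to 144) in WT cells of clusters 11 and 12. The myeloid enzymes Prtn3 and Mpo differed in opposite directions. Prtn3 stood at 110 CPM in CKO cells of cluster 2 and 742 CPM in CKO cells of clusters 11 and 12, against 607 CPM in WT cells of clusters 11 and 12. Mpo stood at 367 CPM in CKO cells of cluster 2 and 264 CPM in CKO cells of clusters 11 and 12, against 273 CPM in WT cells of clusters 11 and 12. Pecam1, an adhesion molecule of endothelium and early blood cells, had 53.3 CPM in CKO cells of cluster 2 and 23.3 CPM in CKO cells of clusters 11 and 12, against 26.4 CPM in WT cells of the same clusters. What each of these contributes to the Id values was not tested.

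**Figure D3:**
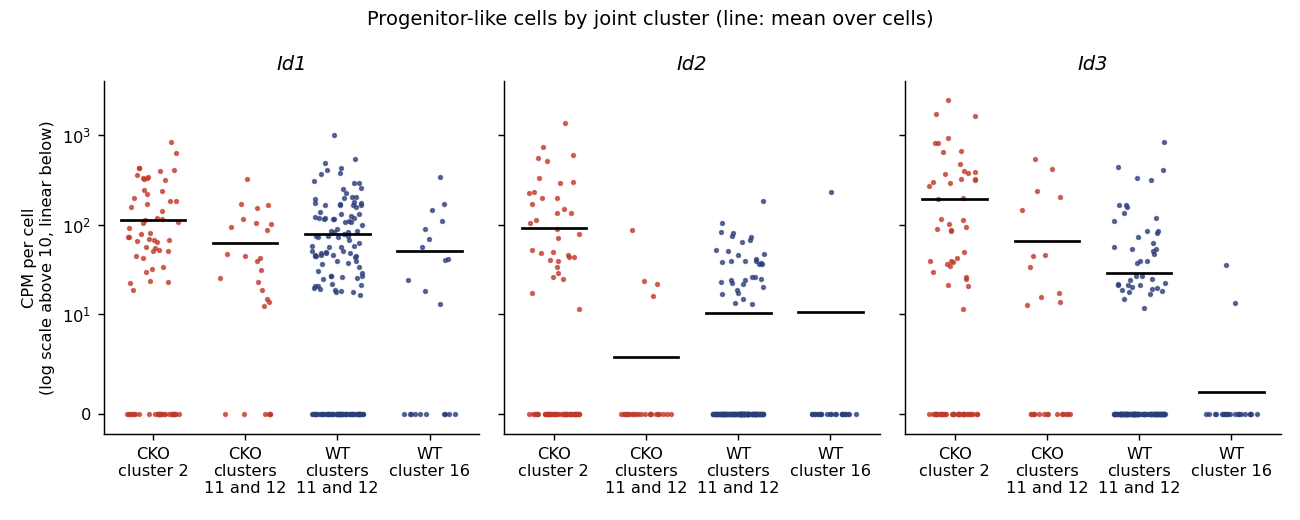
CPM per progenitor-like cell of Id1, Id2 and Id3 by library and joint cluster, on an axis that is linear below 10 CPM and logarithmic above. Points are cells and black lines means over cells. Id2 is seen in 35 of 77 CKO cells of cluster 2, in 4 of 26 CKO cells and in 35 of 149 WT cells of clusters 11 and 12, and in 1 of 22 WT cells of cluster 16.

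Within the CKO library alone, progenitor-like cells with a Smarcc1 UMI had lower Id2 and Id3. The 52 cells with a Smarcc1 UMI stood at 38.0 CPM of Id2, against 104 CPM in the 54 cells without one, a ratio of 0.366 (0.282 to 0.472). Id3 stood at 102 CPM in cells with and 238 CPM in cells without a Smarcc1 UMI, a ratio of 0.430 (0.366 to 0.504). Id1 was 94.3 CPM and 98.3 CPM, a ratio of 0.959 (0.785 to 1.17). This division overlaps that by cluster, because all 26 CKO cells of clusters 11 and 12 had a Smarcc1 UMI. Within cluster 2 the 25 cells with and 52 cells without a Smarcc1 UMI had Id2 at 86.6 and 108 CPM, a ratio of 0.802 (0.613 to 1.04) with an interval that holds 1. Id3 there had 165 and 248 CPM, a ratio of 0.666 (0.552 to 0.800), and Id1 148 and 102 CPM, a ratio of 1.45 (1.16 to 1.81). Over the whole class, cells with a Smarcc1 UMI were deeper (medians of 44071 and 31306 UMIs), and the part of depth was not tested. In endothelium-like cells, where 9 CKO cells had a Smarcc1 UMI and 35 had none, the 3 ratios lay between 0.891 and 1.21 and each interval held 1.

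In summed CPM the contrast in progenitor-like cells was present at each level of endothelial markers. The splits regroup the same cells, and cluster 2, without WT cells, held 275 of the 282 CKO Id2 UMIs. Summed over the 12 endothelium markers the class had 465 CPM in CKO and 301 CPM in WT, with 0 of the markers at 0 in either library. Among cells with 0 or 1 of these markers seen, Id2 stood at 48.1 CPM in CKO and 6.54 CPM in WT, a ratio of 7.35 (4.12 to 13.5), and Id3 at 98.8 and 13.4 CPM, a ratio of 7.36 (4.94 to 11.1). In these cells Id2 was seen in 4 of 21 CKO and 11 of 81 WT cells, and Id3 in 7 and 13 of them, without thinning. With 2 or 3 markers the ratios were 6.24 for Id2 and 5.77 for Id3. With 4 or 5 markers they were 3.58 (2.22 to 6.03) and 3.02 (2.34 to 3.95). The smaller ratios with more endothelial markers went with higher WT levels, 20.3 CPM of Id2 and 71.6 CPM of Id3.

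In summed CPM the contrast was also present in myeloid-primed cells and in cells of neither the myeloid-primed nor the erythroid regulator list. In cells with 2 or more myeloid-primed markers, Id2 had 31.7 CPM in CKO and 9.27 CPM in WT, a ratio of 3.42 (2.31 to 5.13), and Id3 116 and 25.5 CPM, a ratio of 4.56 (3.65 to 5.73). Without thinning, Id2 was seen in 12 of 56 CKO and 23 of 102 WT myeloid-primed cells. Its higher CKO sum thus did not come with a larger share of cells. Id3 was seen in 25 of the CKO and 28 of the WT myeloid-primed cells. In the same cells Id1 had 80.2 CPM in CKO and 80.9 CPM in WT. In cells of neither list, Id2 had 126 CPM in CKO and 12.9 CPM in WT, a ratio of 9.81 (6.25 to 16.2). It was seen in 26 of 47 CKO and 11 of 48 WT cells there. Id3 had 243 and 47.9 CPM there, and Id1 122 and 55.8 CPM, a ratio of 2.19 (1.70 to 2.83). In the 3 CKO and 22 WT cells with erythroid regulators, Id2 had 13.2 and 12.3 CPM (2 and 13 UMIs), a ratio of 1.07 (0.118 to 4.74). The Smarcc1 ratio was 0.0739 in the cells of neither list, against 0.396 in the myeloid-primed cells.

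The contrast was present in cells of both sexes. In Xist-positive cells Id2 had 112 CPM in CKO and 13.2 CPM in WT and Id3 220 and 40.2 CPM, ratios of 8.45 and 5.48. In cells with Y-linked UMIs Id2 had 48.2 CPM in CKO and 4.39 CPM in WT and Id3 148 and 14.2 CPM, ratios of 10.99 and 10.4. The Y-positive CKO cells kept Smarcc1 at 55.1 CPM, against 12.3 CPM in the Xist-positive CKO cells.

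**Figure D4:**
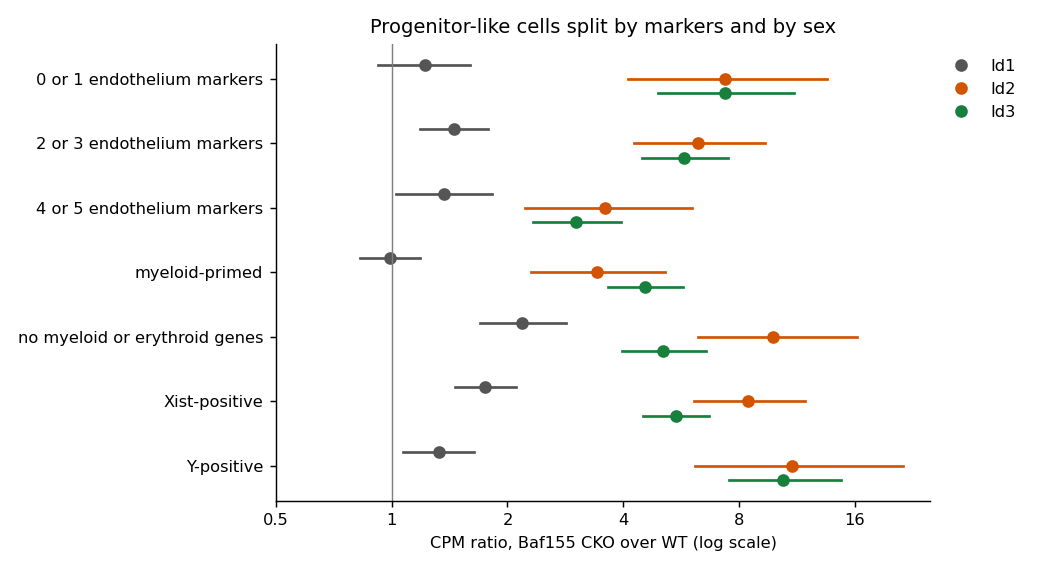
CPM ratios of Baf155 CKO over WT in progenitor-like cells, split by the number of endothelium markers, into myeloid-primed cells and cells of neither the myeloid-primed nor the erythroid regulator list, and by sex, on a log axis with 95% counting intervals. Cells with erythroid regulators (3 CKO and 22 WT) are not drawn. All Id2 and Id3 ratios drawn lie above 3, the lowest being 3.02 for Id3 with 4 or 5 endothelium markers, while Id1 lies between 0.991 and 2.19.

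In progenitor-like cells signs of free RNA moved with the libraries, and genes that handling can raise moved both ways. The 7 globins summed to 2425 CPM in CKO and 533 CPM in WT progenitor-like cells, and the 8 mesenchyme markers to 75.3 and 17.4 CPM with 1 of them at 0 in each library. With the erythroid-like level of the same library subtracted, the ratios were 6.77 for Id2 and 6.04 for Id3. Of the 8 immediate early genes, which dissociation can raise, 3 were 2-fold higher and 1, Jun, 2-fold lower in CKO progenitor-like cells. Of all genes of the class, 8.05% were 2-fold higher and 4.39% 2-fold lower. The immediate early list had a median log2 ratio of -0.12 there, against 0.02 over all genes. Jun had 246 CPM in CKO and 584 CPM in WT. Atf3 had 50.7 CPM in CKO and 21.4 CPM in WT. In endothelium-like cells 3 of 7 measured immediate early genes were 2-fold higher in CKO and in erythroid-like cells 2 of 7, with 0 lower in either. Of all genes 5.28% and 10.3% were 2-fold higher in these classes. The list median was 0.46 in endothelium-like cells, against -0.08 over all genes, and -0.42 in erythroid-like cells, against 0.20. The part of immediate early genes in the Id values was not tested.

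The cells that passed both the endothelium and the progenitor gate, with Smarcc1 at 16.5 CPM in CKO and 161 CPM in WT, had Id3 at 271 CPM (242 to 302) in CKO and 67.0 CPM (42.0 to 101) in WT, a ratio of 4.04 (2.62 to 6.54). Id2 had 78.4 CPM in CKO, whereas the 8 WT cells held 1 UMI, a ratio of 25.8 (4.51 to 1028). Id1 was 116 CPM in CKO and 131 CPM in WT. In CKO these levels lie between those of the progenitor-like and the endothelium-like class, and 1 WT cell held 69.8% of the WT Id1 UMIs. Megakaryocyte-like cells (56 CKO and 12 WT) had Id3 at 55.2 CPM in CKO and 3.21 CPM in WT (2 UMIs), a ratio of 17.2 (4.62 to 144), and Id1 at 28.5 and 9.64 CPM. Their Id2 was at 4.25 CPM in CKO and 11.3 CPM in WT with 7 UMIs each. Of the 56 CKO cells, 13 lay in cluster 2, with 118 CPM of Id3, and 38 in cluster 1, with 25.7 CPM.

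Macrophage-like cells had Id3 at 193 CPM in CKO and 47.8 CPM in WT, but 1 CKO cell held 119 of the 159 CKO UMIs. The CKO median was 0 CPM, as was the WT median. Id1 had 53.4 CPM in CKO and 26.9 CPM in WT, and Id2 26.7 and 23.6 CPM.

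In endothelium-like cells the pooled ratios were 1.19 (0.984 to 1.44) for Id1, 1.16 (0.881 to 1.53) for Id2 and 0.979 (0.881 to 1.09) for Id3, and each interval held 1. The class was not uniform in the CKO library either. The 14 CKO cells that fell in cluster 2 had Id3 at 355 CPM, and the 30 in cluster 3 had 928 CPM, against 786 CPM in the 49 WT cells of cluster 3. The ratio of Id3 differed between the sexes. It was 1.28 (1.10 to 1.504) in Xist-positive cells, with 965 CPM in CKO and 754 CPM in WT, and 0.447 (0.369 to 0.541) in Y-positive cells, with 413 CPM in CKO and 924 CPM in WT. These strata hold 22 CKO and 16 WT, and 19 CKO and 18 WT cells, and the difference between them was not tested.

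In stromal-like cells the pooled ratio of Id3 held opposite differences by marker list. Pooled ratios were 1.07 (0.909 to 1.26) for Id1, 1.08 (0.937 to 1.25) for Id2, 0.921 (0.829 to 1.02) for Id3 and 0.599 (0.427 to 0.835) for Id4. Cells with smooth muscle markers (108 CKO and 100 WT) had Id1 at 39.7 CPM in CKO and 17.7 CPM in WT, a ratio of 2.24 (1.55 to 3.31), and Id3 at 122 and 50.1 CPM, a ratio of 2.43 (1.96 to 3.04). Their Id2 was 70.8 CPM in CKO and 45.4 CPM in WT, a ratio of 1.56 (1.22 to 2.005). Id4 ran the other way in them, with 5.90 CPM in CKO (15 UMIs) and 25.1 CPM in WT (58 UMIs), a ratio of 0.235 (0.124 to 0.421). Cells with mesothelium markers (141 CKO and 117 WT) had Id3 at 106 CPM in CKO and 142 CPM in WT, a ratio of 0.745 (0.647 to 0.858), while the intervals of the other 3 genes held 1.

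Mesothelium-marked and smooth-muscle-marked cells therefore stood in different relations in the libraries. In CKO, Id3 in mesothelium-marked cells was 0.867 times (0.745 to 1.01) that of smooth-muscle-marked cells, and in WT 2.83 times (2.30 to 3.51). Id1 was 1.51 times (1.19 to 1.93) in CKO and 3.57 times (2.53 to 5.13) in WT. Id4 was 1.92 times (1.04 to 3.72) in CKO and 0.372 times (0.226 to 0.597) in WT. The stromal-like cells with neither list (29 CKO and 26 WT) had Id3 at 92.6 CPM in CKO and 369 CPM in WT. Id1 there had 26.8 and 94.0 CPM and Id2 65.9 and 203 CPM, while Id4 had 7 and 4 UMIs. A few WT cells carried much of the family's RNA, since 6 WT stromal-like cells in cluster 9 held 203 of the 676 WT Id3 UMIs and stood at 1175 CPM of Id3 and 799 CPM of Id2.

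**Figure D5:**
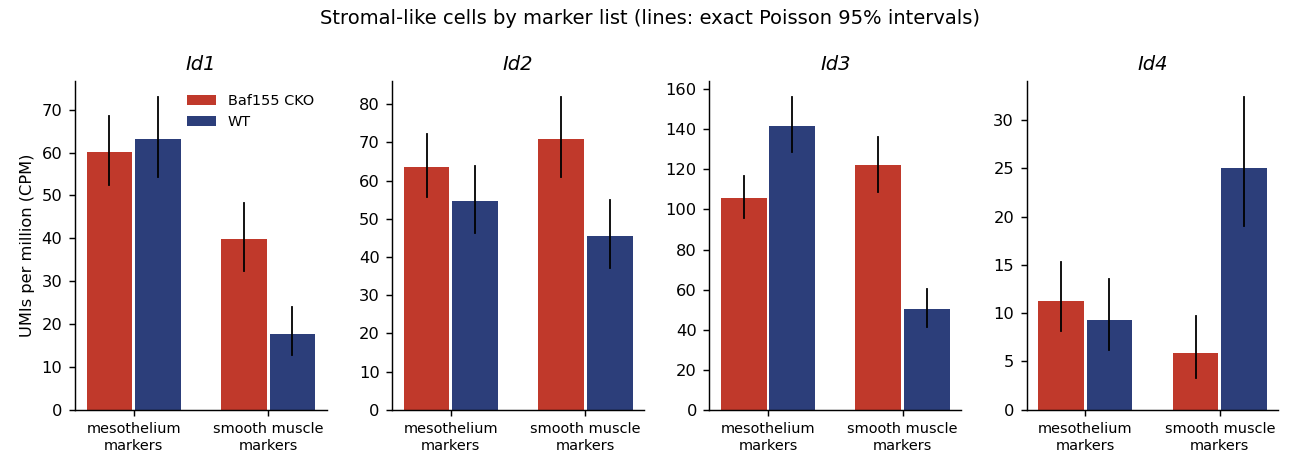
Levels of the Id genes in CPM in stromal-like cells with mesothelium markers and with smooth muscle markers, Baf155 CKO beside WT, with exact Poisson 95% intervals as lines. In smooth-muscle-marked cells Id3 is higher in CKO (122 against 50.1 CPM) and Id4 is lower (5.90 against 25.1 CPM).

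Stromal-like cells came from different clusters in the libraries, with 105 CKO and 10 WT cells in cluster 0, 116 CKO cells in cluster 6, and 97 and 95 WT cells in clusters 5 and 7, where CKO had 16 and 14. In cluster 8, with 22 CKO and 33 WT cells, Id1 had 70.2 CPM in CKO and 17.1 CPM in WT, and Id3 54.1 and 5.12 CPM. Smooth muscle markers summed to 2385 CPM in CKO and 3786 CPM in WT, and mesothelium markers to 609 and 470 CPM. Of the immediate early genes 4 of 8 were 2-fold higher in CKO stromal-like cells, as were 6.19% of all genes. Their list had a median log2 ratio of 1.11, against -0.01 over all genes. Among the immediate early genes Egr1 had 369.6 CPM in CKO and 146 CPM in WT, and Fosb 68.5 and 9.09 CPM. Their part in the Id values was not tested. By sex, Id2 was 1.499 times (1.22 to 1.85) WT in Xist-positive and 0.748 times (0.598 to 0.935) in Y-positive stromal-like cells, and Id3 1.20 times (1.04 to 1.39) and 0.677 times (0.569 to 0.804).

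Id1, Id2 and Id3 were seen together in the same cells in some classes and little in others. In CKO progenitor-like cells thinned to equal depth, Id3 was seen in 15 of 21 cells with Id2 (71.4%) and in 15 of 85 without (17.6%). In WT it was seen in 1 of 6 cells with Id2 and in 15 of 166 without (9.04%). Id2 was seen in 2 of 48 WT progenitor-like cells with Id1 and in 4 of 124 without. After thinning, no erythroid-like cell of either library held all of Id1, Id2 and Id3. In thinned cells all of them were seen in 7 CKO and 0 WT progenitor-like cells and in 14 CKO and 10 WT endothelium-like cells. The same held for 23 CKO and 16 WT stromal-like cells. Without thinning some WT progenitor-like cells did hold all of Id1, Id2 and Id3. An example is a cell with 380 CPM of Id1 and 47.5 CPM each of Id2 and Id3. Pearson's r of Id2 and Id3 on the log2(CPM + 10) scale was 0.550 over the 106 CKO and 0.221 over the 172 WT progenitor-like cells, and 0.494 over the 278 CKO and 0.610 over the 243 WT stromal-like cells. Cells of a class share a library and a range of depths, so these are descriptions.

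E proteins, the binding partners of Id proteins, stayed under 2-fold in each of the 4 classes. In progenitor-like cells the ratio was 1.64 (1.33 to 2.04) for Tcf4, 1.34 (1.06 to 1.69) for Tcf12 and 0.879 (0.762 to 1.01) for Tcf3. In erythroid-like cells Tcf3 had a ratio of 1.42 (1.19 to 1.69). Cells of both endothelium and progenitor gates had Tcf12 at a ratio of 2.40 (1.10 to 6.22), from 62 CKO and 7 WT UMIs. Their ratios were 1.69 (1.02 to 2.95) for Tcf4 and 1.04 (0.672 to 1.67) for Tcf3. In progenitor-like cells Tcf3 had 72.0 CPM in CKO and 81.9 CPM in WT, Tcf4 41.1 and 24.98 CPM and Tcf12 31.2 and 23.3 CPM. Of 12 tissue bHLH partners, 3 were measured in progenitor-like cells, where 0 were 2-fold higher and 1 was 2-fold lower. Of all genes of that class 8.05% were 2-fold higher and 4.39% 2-fold lower. Lyl1 had 131 CPM in CKO and 160 CPM in WT and Tal1 45.8 and 37.0 CPM, both factors of early blood. Twist1, a factor of mesenchyme, was the lower one with 0.944 and 4.28 CPM (4 and 30 UMIs). In erythroid-like cells 3 were measured and 1, Hand1, was 2-fold higher, from 16 CKO and 4 WT UMIs. Of all genes there 10.3% were 2-fold higher. In the same class Lyl1 had 138 CPM in CKO and 69.5 CPM in WT, and Tal1 114 and 60.2 CPM. In stromal-like cells 6 were measured and Tcf21, a factor of visceral mesenchyme, was the 1 past 2-fold. It had 17.1 CPM in CKO and 42.9 CPM in WT, where 3.68% of all genes were 2-fold lower. Hand1, the most abundant in stromal-like cells, had 387 CPM in CKO and 421 CPM in WT. Usp1, whose product removes ubiquitin from Id proteins, had 89.9 CPM in CKO and 110 CPM in WT progenitor-like cells, and 55.0 and 102 CPM in stromal-like cells.

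Of the BMP ligands, Bmp2 was the 1 measured in progenitor-like cells, with 9.91 CPM in CKO and 2.71 CPM in WT (42 and 19 UMIs), a log2 ratio of 1.87. It also passed 2-fold in the other 3 of the 4 compared classes. In CKO and WT it had 27.0 and 9.19 CPM in endothelium-like and 46.1 and 16.2 CPM in stromal-like cells. Erythroid-like cells had 5.36 and 1.09 CPM. The Bmp2 ratio was 1.02 (0.413 to 2.88) in megakaryocyte-like cells, from 19 CKO and 7 WT UMIs. In cells of both endothelium and progenitor gates it was 0.658 (0.259 to 1.88), from 17 and 7 UMIs. The part of free RNA in these values was not tested. Bmp4, highest in stromal-like cells among the 4 classes, had 73.1 CPM in CKO and 103 CPM in WT there.

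Of 8 BMP receptor genes, 4 were measured in progenitor-like cells, 5 in endothelium-like, 7 in stromal-like and 2 in erythroid-like cells, and none passed 2-fold in the first 2 classes. In stromal-like cells Eng, a co-receptor of endothelium, was 2-fold lower with 4.45 CPM in CKO and 11.4 CPM in WT. In erythroid-like cells Bmpr1a was 2-fold higher with 4.83 and 1.28 CPM. Of all genes 3.68% were 2-fold lower in stromal-like and 10.3% 2-fold higher in erythroid-like cells. Of 4 SMAD genes 3 were measured in progenitor-like cells and 0 passed 2-fold. In endothelium-like cells 2 of 3 were 2-fold lower in CKO, where 7.71% of all genes were, with a median log2 ratio of -1.001. Smad4, the shared partner of the receptor SMADs, had 26.1 CPM in CKO and 57.8 CPM in WT, and Smad5, a receptor SMAD, 17.7 and 35.5 CPM. Smad1, another receptor SMAD, did not pass with 43.0 CPM in CKO and 81.4 CPM in WT. Of the 7 BMP feedback targets 3 were measured in progenitor-like, endothelium-like and erythroid-like cells and 6 in stromal-like cells, and none of those measured passed 2-fold. Atoh8 was under 20 UMIs in progenitor-like cells, with 8 CKO and 1 WT UMIs. Bambi, a decoy receptor, had 44.8 CPM in CKO and 34.1 CPM in WT progenitor-like cells, Smad7, an inhibitory SMAD, 5.66 and 3.85 CPM, and their list had a median log2 ratio of 0.56 over 3 genes.

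Across the 12 sums of a class and a library with at least 20 cells, the Id genes followed each other to different degrees. Pearson's r on the log2(CPM + 5) scale was 0.924 for Id1 and Id3, 0.873 for Id1 and Id2, and 0.836 for Id2 and Id3, and between 0.278 and 0.433 for Id4 with the others. Among 10204 candidate genes the patterns most like Id1 were those of Git1 (r = 0.980), Mrps6, Lxn, Plcg1 and Trim71. For Id2 they were Ireb2 (0.960), Icmt, Scp2, Pygo2 and Cul7, all highest in WT endoderm-like cells. For Id3 they were Ctnnd1 (0.964), which encodes p120-catenin of cell junctions, Epb4.1l2, Lxn, Shisa5 and Ctnnb1, which encodes beta-catenin. For Id4 they were Dsel (0.977), Tox3, Rerg, Lrfn4 and Rnd3, all highest in WT stromal-like cells. The points share 2 libraries and the sums of few cell classes, so these values are descriptions.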

How the data were processed

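The deposited matrices hold raw UMI counts per gene and barcode, and the submitters' processing notes name Cell Ranger, Seurat and GRCm38. From these counts, barcodes with under 500 genes (0 here) or over 10% mitochondrial UMIs were dropped, and Scrublet calls at an expected rate of 1% (6 CKO and 3 WT) were left out, which left 841 and 784 cells (18 CKO and 28 WT were over the mitochondrial limit). Every kept cell had at least 6071 UMIs, and medians over all barcodes were 27882 in CKO and 27249 in WT. Of the listed markers 1 was not matched. A marker counted as seen from 2 UMIs in a cell on. Gates needed 6 of 12 endothelium, 4 of 9 blood progenitor, 6 of 10 megakaryocyte, 4 of 7 macrophage, 4 of 8 mesenchyme or 4 of 7 visceral endoderm markers, or 5% globin UMIs. The numbers were set after seeing marker counts, and 29 CKO and 41 WT cells lay exactly at the progenitor limit. CPM are summed UMIs scaled to 1000000 with exact Poisson intervals, ratios have conditional binomial intervals, and shares have exact binomial (Clopper-Pearson) intervals, after thinning to 6000 UMIs, for which no cell was too shallow. Joint Leiden clusters were an alternative. The ratio and its intervals were run on simulated Poisson class sums, which is the model that the intervals assume. That run cannot show how they hold for UMIs gathered in few cells.

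The members, lists and comparisons were chosen with earlier results of these data known. Genes named are the Id genes, the 5 most alike in pattern to each, and from the pathway lists the most abundant members or those past 2-fold among genes with at least 20 UMIs. Some further list members were named after their values were seen. RefSeq promoter windows and GENCODE M21 gene models, both on GRCm38, gave sequences and positions. The tools were scanpy 1.11.5 with igraph 0.11.9 for clusters, scipy 1.17.1 for intervals, and numpy 2.4.6, pandas 2.3.3 and matplotlib 3.10.9 on Python 3.11.15.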

Additional observations from a re-analysis of the deposited data

Results flagged for a closer look

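The CKO to WT ratios of Id3 in endothelium-like cells and of Id2 and Id3 in stromal-like cells lay on opposite sides of 1 in the sexes, each interval leaving out 1. In endothelium-like cells the ratio of Id3 was 1.28 in Xist-positive and 0.447 in Y-positive cells. In stromal-like cells Id2 had ratios of 1.499 in Xist-positive and 0.748 in Y-positive cells, and Id3 had 1.20 and 0.677. The difference between the sexes was not tested, and each library pooled embryos. The Smarcc1 ratio in the same strata was 0.0660 in Xist-positive and 0.165 in Y-positive endothelium-like cells, and 0.253 and 0.370 in stromal-like cells.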

How the results depend on the processing

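Over 17 alternatives (13 listed at the start and 4 added after seeing the data), the 12 ratios took 197 values, of which 150 lay inside the interval of the ratio as reported, 45 outside it and 2 reversed, meaning that a ratio of at least 2-fold crossed 1. Both were of Id2 in progenitor-like cells, at 0.559 with classes from joint clusters and 0.484 in cells of clusters filled by both libraries only. In the latter 26 CKO cells remained. Both settings left out cluster 2, so they are not separate checks. With classes from joint clusters it had no class, since its largest gated class held 48.1% of its cells. Ratios under 2-fold also crossed 1, among them Id1 in progenitor-like cells at 0.801 and 0.796 under these same settings, and Id2 in stromal-like cells at 0.748 in Y-positive cells and 0.917 with 1 marker fewer needed. The count of ratios 2-fold higher in CKO, 3 as reported, was 2 or 3 in 16 alternatives and 0 in cells of clusters filled by both libraries only. The count 2-fold lower, 0 as reported, was 1 in those cells (Id2 in progenitor-like cells) and 1 in Y-positive cells only (Id3 in endothelium-like cells, 0.447). These counts cover unequal sets, 11 pairs in the shared clusters and 10 in Y-positive cells. In both settings Id3 in erythroid-like cells fell under 20 UMIs and was not counted. Without the top 5% of cells that pair had no WT UMI left and counted as higher without a finite ratio. Id3 in progenitor-like cells stayed above 1 in all 17, between 1.94 and 10.96, and Id4 in stromal-like cells below 1 in all 17, between 0.502 and 0.786. No paired analysis was possible because there was 1 library per genotype, and leaving out a replicate was not possible for the same reason. Depth limits Id4 outside stromal-like cells and every value from under 20 UMIs.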

Other observations

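Some cells that passed no gate carried high Id levels. Among them, 8 CKO and 5 WT cells had a UMI of Epcam, an epithelial adhesion molecule. Id2 stood at 410 CPM in these CKO cells and 901 CPM in these WT cells, Id3 at 660 and 1045 CPM, and Id1 at 439 and 389 CPM. They also had Krt8, an epithelial keratin, at 2426 CPM in CKO and 1067 CPM in WT, and Rbp4, a retinol carrier of visceral endoderm, at 2676 and 1790 CPM. The 36 CKO and 63 WT cells of no gate without an Epcam UMI had Id2 at 112 and 160 CPM and Id3 at 269 and 228 CPM. The Epcam division was chosen after values were seen.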
